A study of Glycine max with 46 samples.

Results

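Glyma.01G228700 on chromosome 1 and Glyma.11G011500 on chromosome 11 are 2 near-identical soybean genes that the deposited tables describe as members of the chalcone and stilbene synthase family. They were taken by gene ID, as 2 of 56044 genes, and followed through 46 RNA-seq libraries of seed coats, hilum, whole seed, roots, flower and leaves. Each gene is given by its model with the longest cDNA, 1496 bases for the chromosome 1 copy and 1744 bases for the chromosome 11 copy, and the sum of both copies is given beside each. The chromosomes are read from the gene IDs. No position or sequence is given, because no genome was used here.

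Chalcone synthase joins a coumaroyl-CoA starter with malonyl-CoA units into a chalcone, the first committed step towards flavonoids, isoflavonoids, proanthocyanidins and anthocyanins. Soybean carries many copies of the gene. At the I locus on chromosome 8, duplicated and inverted copies give rise to short interfering RNAs that silence chalcone synthase messenger RNA in the seed coat. The dominant forms of the locus, I and i-i, give a yellow coat, with i-i leaving a dark hilum, and with recessive i alleles pigment fills the whole coat. The hilum is the scar where the seed was attached to the pod.

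The libraries were made from greenhouse plants of yellow lines and of mutants with pigmented coats. The yellow lines were Williams W43 (genotype i-i R T w1, yellow coat with black hilum), Richland (I R t) and Harosoy UC501 (I r T W1). UC508 was a Harosoy isoline of the same genotype with defective coats, labelled Def and net. The pigmented lines were W44 (i R T w1, black coat, inversion at i), W55 (i R w1, black coat, deletion of 138 kb at i), UC9 (Clark background, i R T W1, black coat, the same size of deletion), RM38 (Clark background, i r T W1, brown coat) and T157 (i R t, imperfect black coat). The 2 heavier W55 coat libraries carry the genotype label i-i although their line is labelled an i mutation with the deletion. Whole immature coats came from seeds of 5-6 to 400-500 mg fresh weight. There were 4 coats each of Richland and T157, 5 of W43, 6 of W44 and 4 of W55, and 1 each of UC9, RM38, UC501 and UC508. Coats without hilum and hilum were dissected from W43 seeds of 25-50 and 50-100 mg, with 2 libraries of each. Whole seeds at 5 days after flowering came from Richland and T157, with 1 library each, and from W55, with 2. Roots came from 5-day-old W43 seedlings flooded for 12 or 24 h and from 4-week-old plants labelled W54, which is described as the same as W43, and W55. Leaves came from 4-week-old Richland and T157 plants, and flowers from an adult Williams isoline described as W1 and purple-flowered, although its genotype label reads i-i RT w1. Each root, leaf and flower condition had 1 library. Nothing in the labels says that libraries of a group came from separate plants, so p-values measure only the spread between libraries, which may be technical. The fits of whole coats by line or by weight had 1 library for each line and weight class. Their errors therefore hold the unevenness of a difference across weights or lines, and not the spread of replicates.

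Levels are RPKM, reads per kilobase of model divided by the library's alignments in mega (M) units. Total alignments were inferred by taking the smallest nonzero RPKM times length of a library as 1 read, and ran from 18.1 to 545 M. With these totals, reads behind a copy's value ran from 605 to 125388, so counting error was small even in leaf. In the Richland leaf the chromosome 1 copy had 636 reads and 1.90 RPKM, with an exact Poisson 95% interval of 1.76 to 2.06 that covers counting error only. Marker genes chosen by description set the leaves, the roots and the flooded roots apart. Summed photosynthesis genes were at 14420 to 30040 RPKM in the leaves and at most 3627 elsewhere, summed root genes were at 343 to 623 in roots and at most 140 elsewhere, and the summed alcohol dehydrogenase 1 and hemoglobin 1 genes were at 2099 to 3839 in flooded roots and 227 to 350 in young roots. The floral list did not set the flower apart, with 174 RPKM there and 84.8 to 303 in whole seeds. Summed cupin and oleosin genes, taken as embryo markers, did not set whole seeds apart, at 196 to 248 RPKM there and 108 to 3699 in whole coats. The flower and whole seed labels were therefore not borne out by these lists. No gene of the files is described as seed coat specific, so the coat labels were not checked. The chromosome 11 gene has a second model of 1740 bases, which is not part of the values given. Its RPKM was close to that of the model used, at 27.2 against 26.5 in the W43 coat of 10-50 mg. If reads matching both models were divided between them, the chromosome 11 values, the sum and the ratio of the copies are too low. How reads that match both models or both copies were assigned is not given in the sources used here. The split between the copies, and which is higher, is therefore uncertain. The sum is too high if reads matching both copies were counted in each. The same limit holds for sums over the other chalcone synthase genes, those on chromosome 8 among them. Shares of the family sum are uncertain for that reason, and the size of this effect was not tested. In a bulk library, fewer cells of a type and less RNA per cell cannot be told apart.

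In 3 libraries over 50% of alignments fell in gene models without any description. Both W55 coats of 5-6 mg had 88.3% and 80.1%, and the W44 coat of 50-100 mg had 55.3%, against 6.03% to 15.8% in the other libraries. RPKM of every other gene is lower by that share, so values of these 3 are given as deposited and scaled to described models, that is, with alignments to described models alone in the denominator. A second point concerns the library labelled W55 root. The 9 chalcone synthase genes on chromosome 8 summed to 1.07 to 10.5 RPKM in the 6 coat and whole-seed libraries of W55, which is 1.75% to 4.96% of the sum of the 2 copies, and to 26.3 RPKM in UC9. In the library labelled W55 root they summed to 149.7 RPKM, against 266 RPKM in W54 root. That library thus goes against the pattern of the other W55 libraries. Which genes the labelled deletion removes is not stated in the labels, and a wrong label, a difference in line and a difference in organ cannot be told apart here, so no difference between lines is read from the roots. RM38, for which no deletion is labelled, had 28.5 RPKM.

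**Figure D1:**
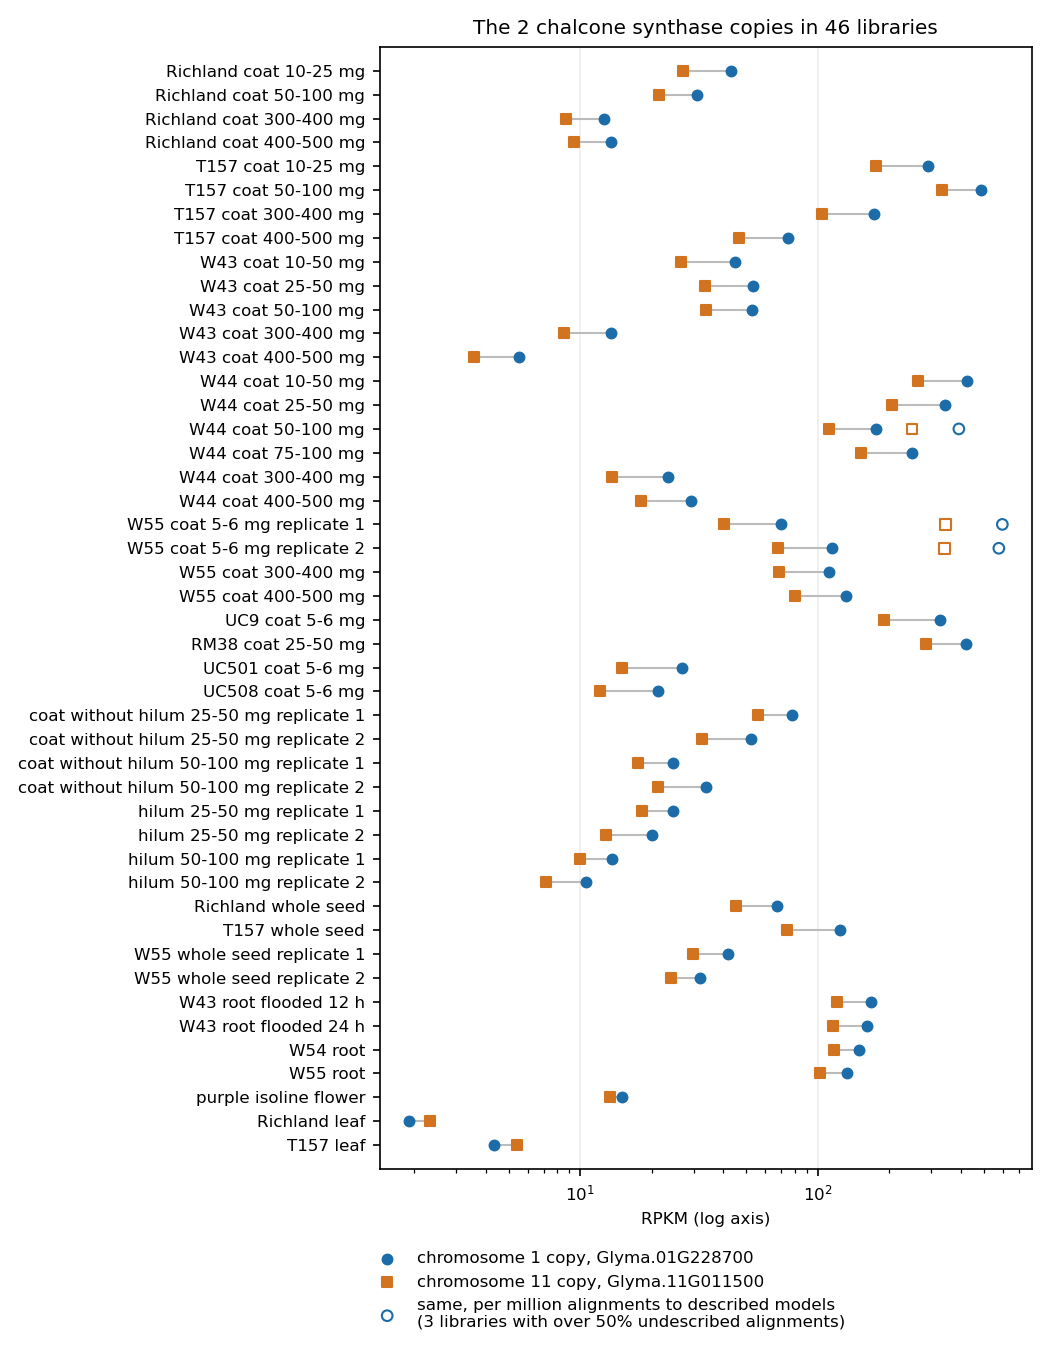
RPKM of the chromosome 1 copy (blue circles) and the chromosome 11 copy (orange squares) in each of 46 libraries, on a log axis. Open symbols give the same values when scaled to described models for the 3 libraries with over 50% of alignments in undescribed models. By the models used, the chromosome 1 copy is the higher of the pair in all but the leaf libraries.

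Both copies were among the higher transcripts of young pigmented coats and low in leaf. The sum ranged from 4.24 RPKM in the Richland leaf to 820 RPKM in the T157 coat of 50-100 mg, with a median of 85.8 over 46 libraries. The chromosome 1 copy had its best rank, 38th of 56044 genes, in a whole coat library, and ranked 13653rd and 19660th in the leaves. Averaging replicates gave 40 conditions, whose highest and lowest sums were 193.5-fold apart. The largest ratio between 2 libraries of a condition was 1.66 as deposited, between the W55 coats of 5-6 mg. Those 2 libraries differ in their undescribed share, and scaled to described models their sums were 943 and 921 RPKM. The next largest ratio was 1.57, between coats without hilum of 25-50 mg. Of the 39 steps between neighbours in this order, 2 were larger than 1.66. These were the step from hilum of 50-100 mg down to T157 leaf, at 2.12-fold, and the step from the W43 coat of 400-500 mg down to Richland leaf, at 2.14-fold. The other steps were within this ratio. Neighbours in a sorted order lie close by construction, so the steps do not say which conditions differ. The W55 coats of 5-6 mg stood 17th in the order as deposited and 1st when scaled to described models.

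In leaf the chromosome 1 copy was at 1.90 RPKM in Richland and 4.35 in T157, and the chromosome 11 copy at 2.34 and 5.39. The sum was 2.30-fold higher in the T157 leaf, and 10.5% of 26942 genes with a mean of at least 1 RPKM were at least 2-fold higher there. Both copies together made up 1.98% and 1.86% of the summed RPKM of all 24 genes with the chalcone synthase description in these leaves. In the flower the copies were at 15.0 and 13.3 RPKM, and their sum of 28.3 RPKM was 19.4% of the family sum.

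Root was the organ outside the seed with the highest levels. The chromosome 1 copy was at 167 and 161 RPKM in W43 roots flooded for 12 and 24 h, at 149.1 in W54 root and at 133 in the library labelled W55 root. The chromosome 11 copy was at 121, 116, 117 and 102 RPKM in the same order. The sums, 288, 277, 266 and 235 RPKM, differed by less than the largest ratio between replicates, and each was above all W43 and Richland coats. The sum at 12 h was 1.04-fold that at 24 h, with 1 library at each time, and 1.91% of 30588 genes were at least 2-fold higher at 12 h. Unflooded roots of the same age were not analysed here. The 9 chromosome 8 genes, in contrast, summed to 74.1 RPKM at 12 h and 527 RPKM at 24 h, so the 2 copies made up 76.7% of the family sum at 12 h and 31.7% at 24 h. W54 root was 1.13-fold above the library labelled W55 root, and 0.791% of 30451 genes were at least 2-fold higher in W54.

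The comparison of T157 with Richland asks how the recessive i mutation alters coat transcripts at matched seed weights. In Richland coats of 10-25, 50-100, 300-400 and 400-500 mg the chromosome 1 copy was at 43.3, 30.96, 12.6 and 13.5 RPKM. In T157 coats of the same weights it was at 290, 486, 173 and 74.7 RPKM. The chromosome 11 copy was at 27.2, 21.4, 8.68 and 9.41 RPKM in Richland and at 176, 334, 105 and 46.6 in T157. T157 was higher in all 4 weight classes for both copies, as for 16.2% of 29080 genes, and at least 2-fold higher in all 4, as for 0.134%. The lines did not overlap, since the lowest T157 value was above the highest Richland value, which held for 1.1% of genes. The sum was 6.63-, 15.7-, 13.1- and 5.30-fold higher in T157.

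In a limma fit on log2(RPKM + 1) with seed weight as a block, the chromosome 1 copy was higher in T157 by 3.18 ± 0.29 (SE, 4 libraries a line) and the chromosome 11 copy by 3.05 ± 0.30. These were the largest and the third largest positive differences among 29080 genes. Neither passed, with Benjamini-Hochberg adjusted p of 0.137 and 0.144, and limma called no gene in this comparison (0.0% of those tested). There were 4647 genes with an unadjusted p under 0.05. Fold changes on this scale understate the change of low genes.

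Williams lines compare i with i-i, where T157 and Richland compare i with I, and they also carry T rather than t. In W43 coats of 10-50, 25-50, 50-100, 300-400 and 400-500 mg the chromosome 1 copy was at 44.6, 53.5, 52.7, 13.4 and 5.52 RPKM, and the chromosome 11 copy at 26.5, 33.5, 34.0, 8.53 and 3.57. In W44 coats of these weights the chromosome 1 copy was at 423, 344, 175, 23.4 and 29.3 RPKM, and the chromosome 11 copy at 264, 206, 111, 13.7 and 18.1. W44 was higher in all 5 weight classes, which held for 0.398% of 28909 genes. The sum was 9.65-, 6.33-, 3.31-, 1.69- and 5.21-fold higher, and the smallest ratio, at 300-400 mg, is close to the largest ratio between replicates. Scaled to described models, the ratio at 50-100 mg was 6.87 rather than 3.31. A further W44 coat of 75-100 mg, with no W43 partner, had 249 and 151.5 RPKM.

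Over the 5 weight classes the fitted difference of W44 from W43 was 2.11 ± 0.36 for the chromosome 1 copy and 2.04 ± 0.35 for the chromosome 11 copy on the log2 scale, the largest and second largest positive differences of 28909 genes. The limma adjusted p was 0.618 for both, and 0.0% of genes were called. An unadjusted p under 0.05 was found for 1658 genes. Of the 5 pairs, the 10-50 and 50-100 mg pairs have neighbouring library numbers, and these alone gave 2.47 ± 1.33 and 2.47 ± 1.24 (adjusted p = 0.825 for both).

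W55 coats were available at the 2 heaviest weights of this series. At 300-400 and 400-500 mg the chromosome 1 copy was at 111 and 132 RPKM in W55, and the chromosome 11 copy at 68.8 and 80.2. The sum was 8.21- and 23.3-fold above W43, and 4.87- and 4.47-fold above W44, in the same weight classes. In both classes, 3.28% of genes were at least 2-fold above W43 and 4.45% at least 2-fold above W44. The W55 values at both weights were close to each other, and W55 coats of 10 to 100 mg were not analysed here.

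The fit over the 12 Williams libraries gave a W55 difference from W43 of 3.97 ± 0.52 for the chromosome 1 copy and 3.86 ± 0.50 for the chromosome 11 copy, and both passed (limma adjusted p = 0.0110 for each). Of 28909 genes tested, 0.0761% were called higher and 0.228% lower. These calls rest on 2 W55 libraries and on the seed weight block, to which W44 also contributes, and they were lost in 4 of 6 other settings. The adjusted p was 0.118 and 0.130 without the filter on low values, 0.0743 for both when rescaled by the median ratio and 0.0521 and 0.0554 when scaled to described models. Without the block the differences were 2.22 and 2.14 with adjusted p of 0.976. Without the W55 coat of 400-500 mg the adjusted p was 0.303 and 0.277, without the W43 coat of 50-100 mg 0.0694 and 0.0803, and without the W44 coat of 50-100 mg 0.0692 and 0.0800.

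**Figure D2:**
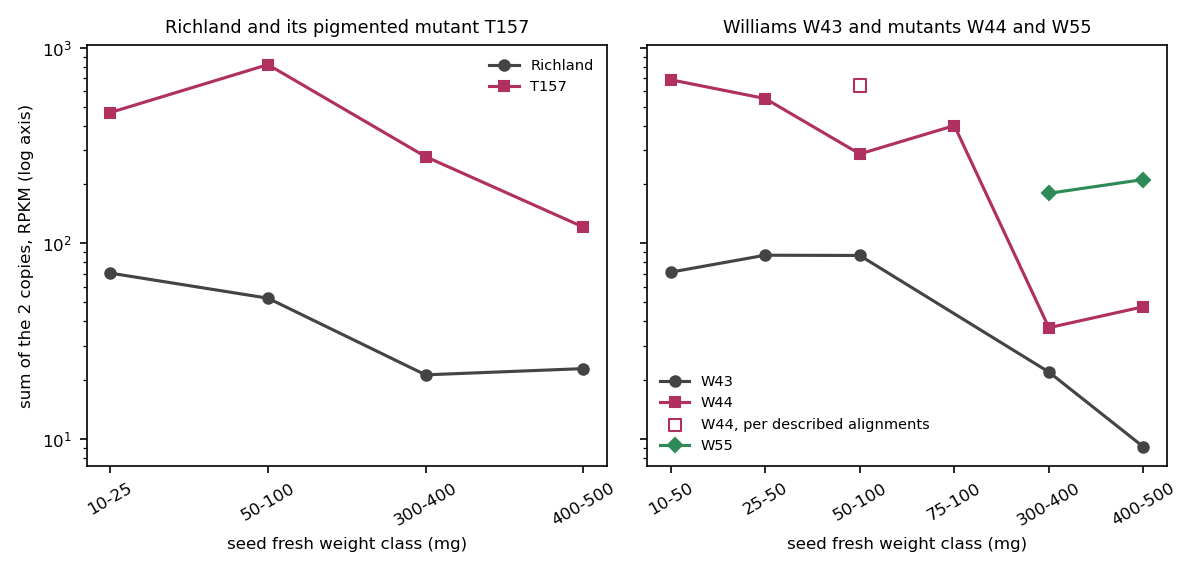
Sum of the 2 copies in RPKM (log axis) in whole coats by seed fresh weight class, for Richland and T157 (left) and for W43, W44 and W55 (right), with 1 library a point. The open square is the W44 coat of 50-100 mg when scaled to described models. T157 and W44 lie above their yellow partners in every shared class.

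The mutant differences were then compared between the pairs of lines, which differ in background, in the yellow allele (I or i-i) and at T, and between seed weights. The T157 difference exceeded the W44 difference by 1.07 ± 0.51 for the chromosome 1 copy and 1.006 ± 0.52 for the chromosome 11 copy on the log2 scale (limma adjusted p = 0.881 for both). No gene was called (0.0% of 29222), and 1513 had an unadjusted p under 0.05. Across T157 and W44, the mutant difference in late coats, of 300 mg or more, minus that in early coats, of up to 100 mg, was -0.67 ± 0.51 and -0.81 ± 0.50 (adjusted p = 0.615 and 0.521), with 0.825% of genes called. The 95% intervals ran from -1.81 to 0.48 for the chromosome 1 copy and from -1.92 to 0.29 for the chromosome 11 copy.

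In summed RPKM, the single UC9 and RM38 coats lay above all W43 and Richland coats. The single UC501 and UC508 coats of 5-6 mg had sums of 41.7 and 33.3 RPKM. These lay above the late W43 and Richland coats, of 300 mg or more, and below the early ones, of up to 100 mg. No W43 or Richland coat of 5-6 mg was analysed here. In UC9 coats of 5-6 mg the copies were at 328 and 190 RPKM. The UC9 sum was 12.4-fold that of the yellow UC501 coat of the same weight, where the copies were at 26.8 and 14.9 RPKM, and 2.93% of 30090 genes were at least 2-fold higher in UC9. These lines differ in background and at R as well as at I. In UC508 the copies were at 21.2 and 12.1 RPKM, and UC501 was 1.25-fold above it, a ratio within the largest replicate ratio, with 0.639% of 29403 genes at least 2-fold higher in UC501. The brown RM38 coat of 25-50 mg had 422 and 286 RPKM, 8.14-fold above the W43 coat and 1.29-fold above the W44 coat of that weight in sum. Of 29247 genes, 11.7% were at least 2-fold higher in RM38 than in W43. RM38 differs from W43 and W44 in background, at R and at W1, and from W43 also at I. The 2 W55 coats of 5-6 mg had 70.0 and 115 RPKM of the chromosome 1 copy and 40.3 and 68.0 RPKM of the chromosome 11 copy as deposited. Their sums, 110.4 and 182.95 RPKM, were below UC9 at 518 RPKM, but when scaled to described models they were 1.66- and 1.62-fold above it, so that the order of these lines depends on the scaling.

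Both copies fell with coat development in Richland, T157, W43 and W44. In Richland and T157, the difference of late from early coats was -1.57 ± 0.30 for the chromosome 1 copy and -1.55 ± 0.30 for the chromosome 11 copy on the log2 scale, or 2.97- and 2.94-fold, and both passed (limma adjusted p = 0.00378 and 0.00443). In that comparison 30.8% of 29080 genes were called lower. In W43 and W44 the differences of the copies were -2.92 ± 0.33 and -2.87 ± 0.31, or 7.54- and 7.29-fold (adjusted p = 5.84e-07 and 4.55e-07), where 21.3% of 29177 genes were called lower. Early and late coats did not overlap within any of the 4 lines, as for 33.7% of genes in Richland and T157 and 14.3% in W43 and W44. The fall was not steady, since the T157 sum was 1.76-fold higher at 50-100 than at 10-25 mg. W55 was not part of these fits. Its deposited sums were 110.4 and 182.95 RPKM at 5-6 mg, 180 at 300-400 mg and 212 at 400-500 mg, with no fall. Scaled to described models they were 943 and 921, then 198 and 233 RPKM, so a fall in W55 depends on the scaling. Early and late libraries of W43 come from different runs of library numbers. The 4 W44 libraries with neighbouring numbers, taken alone, gave -3.43 ± 0.23 and -3.41 ± 0.22 (adjusted p = 0.00177 and 0.00169).

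From 300-400 to 400-500 mg the sum was 2.42-fold lower in W43 and 2.29-fold lower in T157. Ratios in the other lines were within the largest ratio between replicates, with W44 at 37.0 and 47.4 RPKM, W55 at 180 and 212.0 RPKM and Richland at 21.2 and 22.9 RPKM. Over the 5 lines the difference was -0.34 ± 0.28 and -0.30 ± 0.27 (limma adjusted p = 0.494 and 0.531), against 1.44% of 27096 genes called.

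The other genes of the pathway were counted by description. The list held 83 genes, from phenylalanine ammonia-lyase, which starts the phenylpropanoid pathway, to leucoanthocyanidin dioxygenase, which makes anthocyanidins, and included 22 other chalcone synthase genes. In late against early coats of Richland and T157, 54 of them were tested, of which 33 fell, 10 rose and 11 did not pass, with a median of -0.82 against -0.10 over all genes tested. Of all 29080 genes tested, 30.8% were called lower, and 6385 were called higher. In W43 and W44, 27 of 52 fell, 9 rose and 16 did not pass, with a median of -0.68 against 0.02, where 21.3% of 29177 genes were called lower and 5501 genes higher. All 3 flavanone 3-hydroxylase genes tested and both leucoanthocyanidin dioxygenase genes fell in both pairs of lines. Glyma.02G048400, a flavanone 3-hydroxylase, which turns flavanones into dihydroflavonols, had -2.29 ± 0.26 (limma adjusted p = 0.000373) in Richland and T157 and -3.03 ± 0.35 (adjusted p = 9.05e-07) in W43 and W44. Glyma.11G027700, a leucoanthocyanidin dioxygenase, had -2.38 ± 0.21 (adjusted p = 0.000145) and -3.06 ± 0.32 (adjusted p = 2.23e-07). Of the dihydroflavonol reductase genes, which act just before leucoanthocyanidin dioxygenase, 5 of 7 and 4 of 6 fell, while Glyma.02G158700 rose by 0.69 ± 0.18 and 0.85 ± 0.25 (adjusted p = 0.0133 and 0.00962). The cytochrome P450 Glyma.06G202300 had -3.44 ± 0.27 and -4.69 ± 0.27 (adjusted p = 9.44e-05 and 8.95e-11).

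The other chalcone synthase genes were counted in the same fits, and their difference from the 2 copies was not tested. Of the other chalcone synthase genes, 11 of 12 tested fell with coat age in Richland and T157, with a median of -0.87. In W43 and W44, 3 of 11 fell and 8 did not pass, with a median of -0.52 against -2.92 and -2.87 for the 2 copies. In W43 coats of 10-50, 25-50, 50-100, 300-400 and 400-500 mg the 9 chromosome 8 genes summed to 81.0, 92.1, 100.9, 48.8 and 84.0 RPKM, while the 2 copies summed to 71.2, 86.9, 86.6, 21.95 and 9.09 RPKM. In W44 coats of these weights the chromosome 8 genes summed to 250.7, 175.6, 85.6, 73.8 and 111.1 RPKM as deposited. Both late W44 coats were below the coats of 10-50 and 25-50 mg. The W44 coat of 50-100 mg had 55.3% of alignments in undescribed models, which lowers its sum, so its place in this order was not read. The share of the 2 copies in the family sum thus went from 44.7% at 10-50 mg to 9.20% at 400-500 mg in W43. The chalcone isomerase list holds genes described by family, which is named for the next enzyme of the pathway. It had 7 of 11 tested genes lower in late coats of each pair of lines, and 3 were higher in Richland and T157. The cytochrome P450 family 93 genes Glyma.07G202300 and Glyma.13G173500 rose, by 1.23 ± 0.35 and 2.44 ± 0.32 in Richland and T157 (adjusted p = 0.0204 and 0.00075) and by 1.54 ± 0.18 and 2.55 ± 0.29 in W43 and W44 (adjusted p = 9.40e-07 and 7.22e-07).

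Between mutant and yellow coats, the pathway genes that passed were chalcone synthase genes in W55. In T157 against Richland, none of 54 pathway genes tested passed, and their median difference was 0.12 against 0.01 for all genes. All 12 other chalcone synthase genes tested had positive differences, with a median of 1.00. Values for Glyma.06G143000, a chalcone isomerase family gene, were 0.02 ± 0.11, and for Glyma.02G048400 -0.36 ± 0.22. In W44 against W43, none of 51 passed, and the median was -0.06 against -0.12. The 11 other chalcone synthase genes all had positive differences, with a median of 0.62, and the 3 flavanone 3-hydroxylase genes had a median of -1.45. In W55 against W43, 9 of 51 passed and all 9 were chalcone synthase genes that fell, with a list median of -1.96 for the 11 tested, opposite in sign to the 2 copies, where 0.228% of all genes were called lower. The 88 genes called in this fit became 5, 6, 7 and 4 without the filter, under both rescalings and without the block, and 0 without the W55 coat of 400-500 mg, so at least some of the 9 calls are lost in each of these. Glyma.08G110400 on chromosome 8 fell by 2.05 ± 0.35 (limma adjusted p = 0.0347).

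Young coat was set against whole seed in 3 lines. In W55 whole seeds the chromosome 1 copy was at 42.0 and 31.8 RPKM and the chromosome 11 copy at 29.9 and 24.0, below both coats of 5-6 mg. As deposited, the difference of coat from seed was 1.27 ± 0.56 for the chromosome 1 copy, which passed (limma adjusted p = 0.0241), and 0.94 ± 0.52 for the chromosome 11 copy (adjusted p = 0.0731). Errors in this fit rest on a variance fitted over all genes by their level, and not on the spread of a copy's own 4 libraries. In that fit 1.69% of 24841 genes were called higher in the coats and 95.5% lower, with a median of -1.80, and the share of undescribed alignments was high in these coats. The chromosome 1 call was lost without either whole seed library (adjusted p = 0.0796 and 0.199). Scaled to described models, the copies were 13.8- and 10.9-fold higher in the coats, and 16.4% of 29201 genes were called higher. In Richland and T157, with 1 library of each kind, the youngest coat gave 70.4 RPKM against 113 in whole seed for Richland, and 467 against 199 for T157. Genes at least 2-fold above made up 15.8% for whole seed over coat in Richland and 18.1% for coat over whole seed in T157. The Richland ratio of 1.60 is within the largest replicate ratio, 1.66, but above the next largest, 1.57. The T157 whole seed was 1.76-fold above the Richland whole seed, where 2.33% of genes were at least 2-fold higher.

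The dissection of W43 seeds asks how the black hilum compares with the yellow coat around it. The chromosome 1 copy was at 77.8 and 52.6 RPKM in coats without hilum of 25-50 mg and at 24.7 and 20.1 in hilum of that weight. At 50-100 mg it was at 24.6 and 33.9 RPKM in the coats and 13.6 and 10.5 in the hilum. The chromosome 11 copy was at 55.7 and 32.4 against 18.2 and 12.8 RPKM at 25-50 mg, and at 17.4 and 21.3 against 9.97 and 7.15 RPKM at 50-100 mg. Hilum was lower than coat in both weight classes without overlap within a class, as for 29.5% of 29296 genes. The 50-100 mg libraries were below the 25-50 mg ones within each part, as for 13.7%. Across classes the parts overlapped, since the younger hilum reached the level of the lowest coat of 50-100 mg.

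Both copies were lower in the hilum, by 2.54-fold for the chromosome 1 copy and 2.40-fold for the chromosome 11 copy. The log2 differences were -1.34 ± 0.17 and -1.26 ± 0.20 (4 libraries a part, limma adjusted p = 0.000991 and 0.00281), and 26.6% of genes were called lower and 13.4% higher in the hilum. The sum differed by -1.34. The 2 parts differ widely, with 40.0% of genes called in either direction, and the summed low-oxygen markers were also lower in hilum, at 249 to 371 against 908 to 1249 RPKM in coat; the part of tissue makeup in the result was not tested.

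With seed weight, the chromosome 1 copy fell by 0.98 ± 0.17 from 25-50 to 50-100 mg (adjusted p = 0.0495) and the chromosome 11 copy had -0.94 ± 0.20 (adjusted p = 0.0685), where 0.683% of genes were called lower and 1.07% in either direction. Leaving out any 1 of the 8 libraries ended the call of the chromosome 1 copy, with adjusted p of 0.0773 to 0.136. With the 2 series of library numbers as a block both copies passed (adjusted p = 0.0279 and 0.0303), and the genes called went from 313 to 2632. The hilum difference itself was 0.27 ± 0.35 and 0.32 ± 0.42 higher at 50-100 than at 25-50 mg on the log2 scale (adjusted p = 1.00 for both, 0.0137% of genes called), and its sign turned without the first coat library of 25-50 mg.

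**Figure D3:**
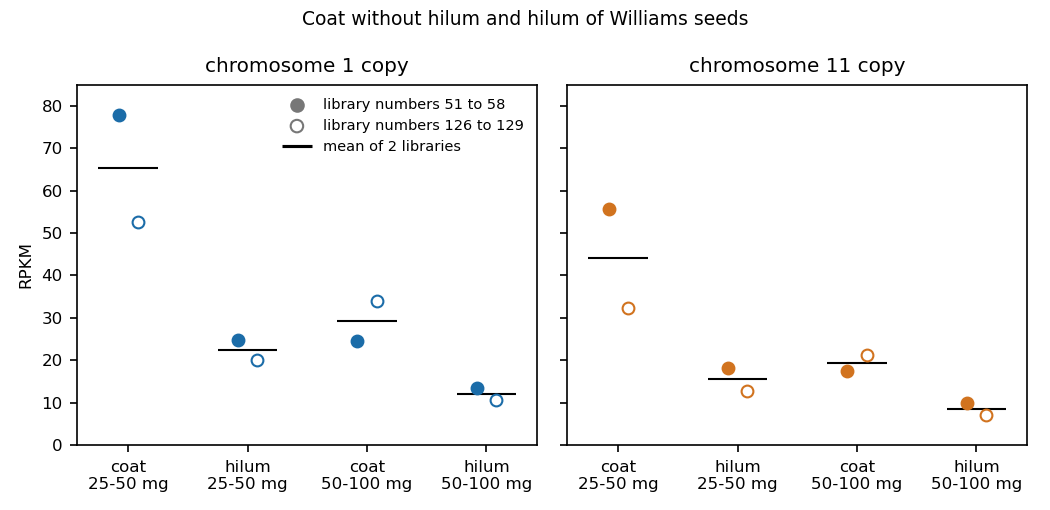
RPKM of the chromosome 1 copy (left) and the chromosome 11 copy (right) in coat without hilum (labelled coat) and hilum of W43 seeds in 2 weight classes. Points are libraries, filled for the lower and open for the higher series of library numbers, and bars are means of 2 libraries. Hilum lies below coat in both classes for both copies.

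Of 51 other pathway genes tested in the hilum, 16 were lower, 5 higher and 30 did not pass, with a median of -0.14 against -0.11 for all genes, of which 26.6% were called lower and 13.4% higher. The list as a whole was thus near the background. Of the 12 other chalcone synthase genes tested, 10 were lower, with a median of -1.23. Of 10 chalcone isomerase family genes 4 were lower, including Glyma.06G143000 with -1.81 ± 0.24 (limma adjusted p = 0.00120) and Glyma.04G222400 with -1.62 ± 0.19 (adjusted p = 0.000595). The other 6 did not pass, among them Glyma.20G241700 with 0.29 ± 0.32 (adjusted p = 0.504). Genes called higher were 3 of 6 for 4-coumarate:CoA ligase, which activates coumarate, among them Glyma.13G372000 with 1.40 ± 0.12 (adjusted p = 0.000173), the flavonol synthase Glyma.05G088100 with 0.76 ± 0.18 (adjusted p = 0.0123) and the cytochrome P450 Glyma.06G202300 with 0.89 ± 0.20 (adjusted p = 0.00970). None of the 3 flavanone 3-hydroxylase genes or the 2 leucoanthocyanidin dioxygenase genes tested passed.

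**Figure D4:**
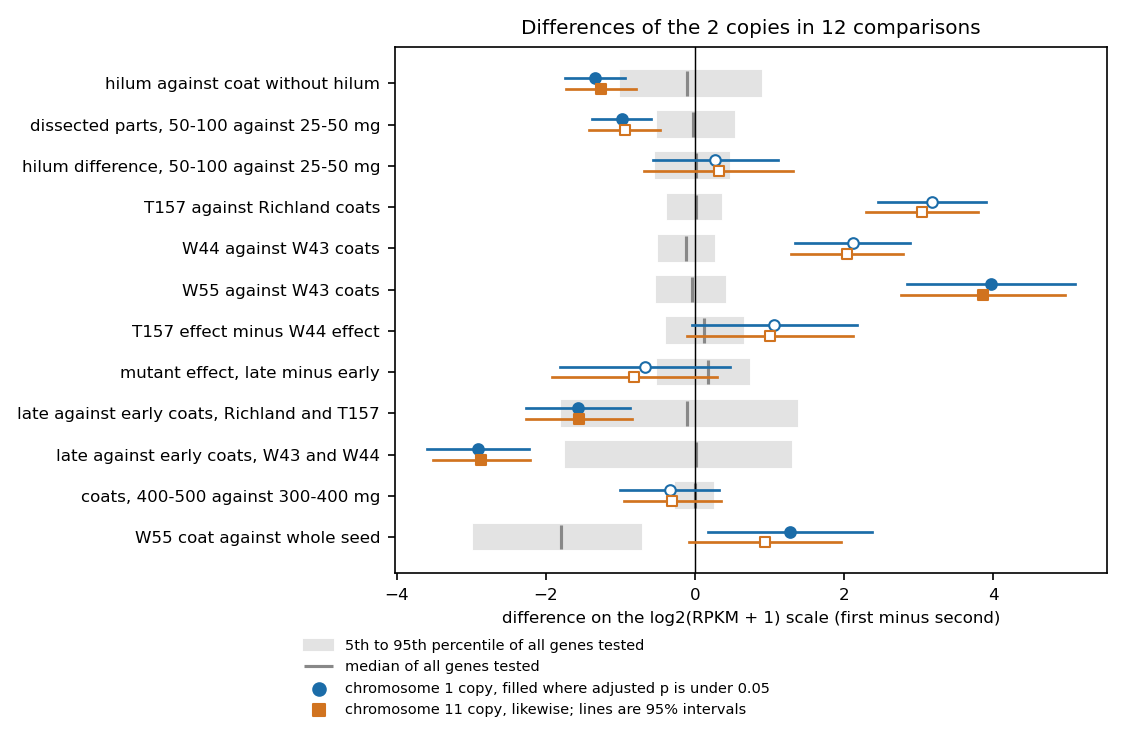
Differences of the 2 copies on the log2(RPKM + 1) scale in 12 limma comparisons, with 95% intervals, filled where the adjusted p was under 0.05. Grey boxes span the 5th to the 95th percentile of all genes tested in a comparison and grey lines their median. In the 3 mutant comparisons both copies lie far above the grey box, and the W55 coat against whole seed box is shifted to -1.80.

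The 2 copies moved together. Across the 38 libraries of lines and organs, Pearson's r of their log2(RPKM + 1) values was 0.993, and across the 8 dissected libraries 0.994, as a description over libraries that share depth and, for near-identical genes, possibly reads. By the models used, the ratio of the chromosome 11 copy to the chromosome 1 copy was not constant. It was 0.556 to 0.699 in 27 whole coats, 0.595 to 0.755 in whole seeds, 0.721 to 0.785 in roots, 0.888 in the flower and 1.23 and 1.24 in the leaves, the libraries where the chromosome 11 copy was the higher one. In the dissected libraries it was 0.709 to 0.739 for the lower and 0.616 to 0.680 for the higher series of library numbers, in coat and hilum alike. In whole coats it was 0.676 to 0.692 for the 3 libraries with numbers under 100 and 0.556 to 0.699 for the 24 above. In the dissected libraries the ratio moved with the number series, and the part of library number in the organ differences was not tested.

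**Figure D5:**
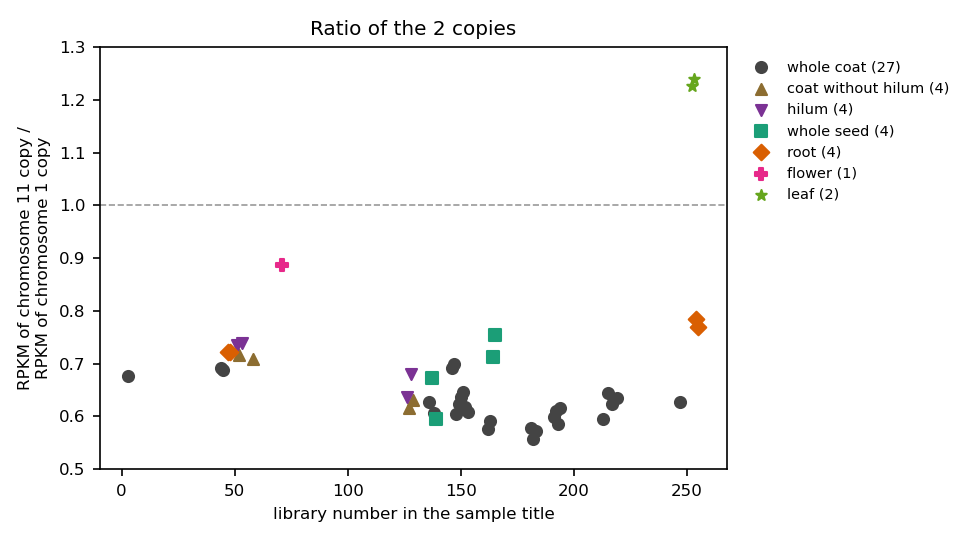
Ratio of the RPKM of the chromosome 11 copy to that of the chromosome 1 copy against the library number in the sample title, by organ, with the number of libraries in brackets. The dashed line marks equal levels. Leaf lies above it, at 1.23 and 1.24, and the other organs below.

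Genes whose pattern was most like the summed copies were ranked by Pearson's r over the 38 libraries, among 12509 described genes outside the family with a mean of at least 5 RPKM. The highest was Glyma.20G062700, a lipid-transfer protein family gene, with r = 0.69, and the next were Glyma.20G031400 (emp24 family, 0.63), Glyma.09G102800 (MATE efflux family, 0.63), Glyma.13G114000 (sucrose synthase 4, 0.62) and Glyma.11G127200 (pfkB-like kinase family, 0.62). The chalcone isomerase family genes Glyma.06G143000 and Glyma.04G222400 followed in places 6 and 9, at 0.61 and 0.59. Within the 21 coats of the weight series these isomerase genes had r of 0.49 and 0.47, and across the 8 dissected libraries 0.94 and 0.95. Glyma.20G062700 had r of 0.68 in the coats but -0.75 in the dissected libraries. The remaining 3, Glyma.16G051100, Glyma.07G115000 and Glyma.18G154900, had r of 0.60, 0.60 and 0.59. Within the family, Glyma.05G153200 on chromosome 5 had r of 0.72 over the 38 libraries, 0.82 over the coats and 0.97 over the dissected libraries, and the 9 chromosome 8 genes had 0.33 to 0.40, 0.27 to 0.40 and 0.98 to 0.99.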

How the data were processed

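Values are RPKM per gene model, deposited by the authors in 2 tables, 1 of 38 libraries of lines and organs and 1 of 8 dissected libraries, made with TruSeq or Stranded TruSeq kits per the labels' protocols. Bowtie is the aligner per the submitters' processing notes; its version and settings, and the build, do not appear in the sources at hand. The total of a library was inferred by taking its smallest nonzero RPKM times length as 1 read. RPKM times length and this total gave whole reads within 0.01 for 100% of values, but the fits used RPKM. There were 4 columns that match no sample, which were not used. Each gene was taken as its longest-cDNA model, and genes with a mean of at least 1 RPKM in a comparison were tested with limma 3.58.1 (R 4.3.3, trended empirical Bayes) on log2(RPKM + 1), with Benjamini-Hochberg adjustment over all genes tested and a threshold of 0.05; summaries used Python 3.11.15 and pandas 2.3.3. The procedure was tested on simulated data. Sums have no test. Named besides the copies are up to 3 genes of each pathway list by mean RPKM and the 10 genes most like the sum. The members and lists were chosen with earlier results of these data known. Library numbers come from the sample titles. In the dissected libraries, deviations from group means within a number series correlated at 0.442 to 0.655, so the series pairs the libraries. The values given have no such block, and blocked values stand beside them where a call changes. Tests were also run with a pseudocount of 0.1, without the filter on low values, after 2 rescalings, with the model of highest mean RPKM, with and without blocks, and without each library.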

Additional observations from a re-analysis of the deposited data

Results flagged for a closer look

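Among 16 checks of a line's coats for a library apart from the rest, of which chance flags about 1 in 20, 1 stood out. The ratio of the chromosome 11 to the chromosome 1 copy in Richland coats was 0.628 at 10-25 mg and 0.691 to 0.699 at the other 3 weights, a gap of 0.889 of the whole range.

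The ratio of whole seed to young coat was above 1 in Richland and below 1 in T157, with 1 library of each kind. The log2 ratio of the summed copies in whole seed over the coat of 10-25 mg was 0.682 in Richland and -1.23 in T157, and the difference was not tested. The Richland ratio, 1.60, is within the largest ratio between replicates, 1.66, but above the next largest, 1.57.

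The ratio between the heaviest coats was above 1 in W55 and below 1 in W43. The log2 ratio of 400-500 over 300-400 mg was 0.235 in W55 and -1.27 in W43, each from 1 library a weight. The difference was not tested, and the W55 ratio is within the largest ratio between replicates.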

How the results depend on the processing

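Differences below are on the log2 scale, chromosome 1 copy first where 2 values are given. Of 591 recomputations of 36 values, 554 kept direction and side of the threshold, 26 lost a call, 5 gained one, 3 moved and 3 changed sign. Hilum and late against early values kept their calls and T157 and W44 values their direction throughout; in T157 and W44 no gene was called, so their side of the threshold says nothing about stability. With the replicate block the hilum difference changed no call. For the dissected weight difference, the chromosome 1 copy gave -0.98 (adjusted p = 0.106) without the filter on low values and -1.08 to -0.84 over single left-out libraries. With the library number series as a replicate block the chromosome 11 copy gave -0.94 (adjusted p = 0.0303). The hilum difference by weight ranged from -0.0041 to 0.55, -0.065 to 0.70 and, for the sum, -0.044 to 0.60 over left-out libraries. W55 against W43 gave 3.97 and 3.86 without the filter (adjusted p = 0.118 and 0.130), 4.04 and 3.94 rescaled by the median ratio (0.0743 for both), 4.07 and 3.97 scaled to described models (0.0521 and 0.0554), and 2.22, 2.14 and, for the sum, 2.23 without the stage block, which is the unpaired fit (no replicate block). Over left-out libraries these were 3.64 to 4.54 and 3.58 to 4.45, with 4.02 and 3.91 without the W43 or the W44 coat of 50-100 mg. W55 coat against whole seed gave 3.72 for the chromosome 11 copy and 3.99 for the sum rescaled by the median ratio, and 3.45 and 3.67 scaled to described models. The title numbers did not pair these samples (correlation -0.0781), and as a replicate block they gave 1.27 for the chromosome 1 copy (adjusted p = 0.143). Left-out libraries gave 0.92 to 1.63 and 0.57 to 1.31. The causes were not tested.

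Counts of called genes moved by over 1.5 times in several fits. The dissected weight count of 313 became 619 at a pseudocount of 0.1, 0 without the filter and 2632 with the block. The count for the hilum difference by weight, 4, became 0, 21, 7, 0 and 93 under the pseudocount, no filter, both rescalings and the block. The W55 against W43 count of 88 became 5, 6, 7 and 4 without the filter, under both rescalings and without the block. The late minus early count of 241 became 132, 418, 769 and 888 under the pseudocount, no filter and both rescalings. The W43 and W44 age count of 11713 became 19014, 18655 and 19085 without the filter and under both rescalings. The count of 390 for 400-500 against 300-400 mg became 0 without the filter and 251 rescaled by the median ratio, and that of 24148 for W55 coat against whole seed became 37250, 9457 and 14442 without the filter and under both rescalings. T157 minus W44 went from 0 to 2 at a pseudocount of 0.1, and W44 against W43 from 0 to 2 over the 2 pairs alone. Leaving out single libraries gave 0 to 50 calls for the dissected weight difference, 0 for the hilum difference by weight, for W55 against W43 12 without the W43 or W44 coat of 50-100 mg and 0 without the W55 coat of 400-500 mg, 25 to 1601 for late minus early (1591 and 1601 without the W43 or W44 coat of 50-100 mg), 0 to 6 for 400-500 against 300-400 mg, and 18632 for the W43 and W44 age count without the W44 coat of 50-100 mg. Ranking by Spearman's rho kept 3 of the 10 genes named as most like the copies, and leaving out the 3 libraries with over 50% of alignments in undescribed models kept 4. The 2 W44 and W43 pairs taken alone and the runs of library numbers taken alone were chosen after seeing the data; the libraries of Richland and T157 with neighbouring numbers alone gave -1.50 and -1.41 for late against early coats. Most conditions have 1 library, so their differences have no replicate check.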
